A study of Equus caballus with 4 samples.

Results

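Stearoyl-CoA desaturase (SCD) and 9 other genes of fatty acid synthesis, desaturation and sterol efflux were followed in differentiating equine satellite cells. These are stem cells of muscle whose progeny fuse into fibres. The genes were SCD, FASN, ACACA, ELOVL6, FADS1, FADS2, SREBF1, ABCA1, ABCG1 and MYLIP, and every gene probe of the array that carried exactly one of these symbols was taken. This gave 15 of 43603 gene probes, for 8 of the 10 genes. FADS1 and ABCG1 had no probe under their symbol, but 6 probes without a symbol named them in the description column (5 for FADS1 and 1 for ABCG1), and these are reported apart.

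The cells came from the semitendinosus muscle and were at day 3 of differentiation in both groups. Treated cells were incubated for 24 h with 0.125 µM gamma-oryzanol (GO). It is made up of ferulic acid esters of plant sterols and of triterpene alcohols, and is obtained from rice bran. For the last 1 h, 3 mM hydrogen peroxide (H2O2) was added. Control cells were cultured without GO. Whether they were given H2O2 is not stated in the labels, whereas the study describes them as exposed to H2O2 and to the DMSO vehicle. Muscle was taken from young stallions and the best primary line was chosen for culture, so that the 4 replicates may stem from 1 line, and p-values then measure the spread between these cultures. Each of 4 two-colour arrays on 1 slide held treated RNA in red (Cy5) and control RNA in green (Cy3). No dyes were swapped, so that an effect of the dye and an effect of the treatment cannot be told apart.

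SCD places a double bond in saturated fatty acids made from the products of acetyl-CoA carboxylase (ACACA), fatty acid synthase (FASN) and the elongase ELOVL6. FADS1 and FADS2 desaturate polyunsaturated fatty acids. SREBF1 encodes the transcription factor SREBP-1, which drives many of these genes and is itself a target of the oxysterol receptors LXR. LXR also activate ABCA1 and ABCG1, transporters that export cholesterol, and MYLIP (IDOL), a ubiquitin ligase that marks lipoprotein receptors for degradation. Plant sterols can act on LXR and on the processing of SREBP. The comparison shows how those transcripts of either side that were detected stood in cells given GO.

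The probes are shown because several of them overlap and cannot count as independent measurements of a gene. The 3 SCD probes lie on the minus strand of chromosome 1 (build EquCab1) at chr1:28761237-28761296, chr1:28761188-28761247 and chr1:28761168-28761227. The first and the second share 11 bases and the second and the third share 40, in capitals. The FASN probe (chrUn:275262650-275262709) and the ELOVL6 probe (chr2:101192543-101192602) each stand alone and carry no capitals. Of the 2 MYLIP probes, at chr20:15019387-15019446 and chr20:15019417-15019476, only the 30 bases that both hold are printed. The 5 FADS2 probes start 1 base apart, and 1 of them (chr12:12207516-12207575) is printed with the 56 bases common to all 5 in capitals. The probes were not placed in exons or UTRs, because an annotation of this build was not used here.
SCD A_69_P094733: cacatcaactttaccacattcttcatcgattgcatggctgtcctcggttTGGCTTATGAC
SCD A_69_P094732: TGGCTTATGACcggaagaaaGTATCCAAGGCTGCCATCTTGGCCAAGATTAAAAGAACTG
SCD A_69_P094731: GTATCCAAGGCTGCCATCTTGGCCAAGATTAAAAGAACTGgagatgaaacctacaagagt
FASN A_69_P031371: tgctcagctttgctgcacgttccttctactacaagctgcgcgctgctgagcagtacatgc
ELOVL6 A_69_P089691: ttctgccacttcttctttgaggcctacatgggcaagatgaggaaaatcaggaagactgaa
MYLIP, shared by both probes: CGAACTGTAAAAAGGATAGATTGTGGAGAA
FADS2 A_69_P010510: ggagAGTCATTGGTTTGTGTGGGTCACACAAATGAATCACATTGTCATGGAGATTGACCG

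A probe was tested when at least one channel stood well above background on every array. This held for 7 of the 15 member probes, which belonged to SCD, FASN, ELOVL6 and MYLIP. The other 8 probes (ACACA, FADS2, SREBF1 and ABCA1) were too dim. Values below are log2 ratios of treated over control after background correction and loess normalisation, so that a negative value means a lower signal with GO and H2O2. Each mean over the 4 arrays was compared with 0 by limma, with Benjamini-Hochberg adjustment over all 24230 tested probes. Of these, 17.1% passed an adjusted p of 0.05 in either direction 7.59% passed with a lower signal and 9.49% with a higher one. Among the members, 3 of the 7 tested probes passed, all of them SCD probes and all lower. The tested probes of FASN, ELOVL6 and MYLIP did not pass. Over all tested probes the median log2 ratio was 0.0030, and the median SD over the arrays was 0.0934.

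SCD was lower with GO and H2O2 on every array at each of its 3 probes. At A_69_P094731 the log2 ratio was −0.20, −0.22, −0.29 and −0.26 on replicates 1 to 4, a mean of −0.24 ± 0.038 (SD, n = 4, limma adjusted p = 0.0186). The 4 values lie close together, and none comes near 0. At A_69_P094732 the values were −0.13, −0.14, −0.13 and −0.20, a mean of −0.15 ± 0.034 (SD, n = 4, limma adjusted p = 0.0420). At A_69_P094733 they were −0.12, −0.25, −0.099 and −0.23, a mean of −0.17 ± 0.077 (SD, n = 4, limma adjusted p = 0.0441). Replicates 2 and 4 stood lower at this probe than replicates 1 and 3, while at A_69_P094732 replicate 4 alone stood lower than the rest. All 12 values were thus below 0, from 3 probes of the same transcript.

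The change in SCD was small. In fold terms the signal was 1.18, 1.11 and 1.13 times higher in the control cells at A_69_P094731, A_69_P094732 and A_69_P094733. None of the 3 reached the fold change of 1.3 that the study's methods set as a limit. The study's list of changed genes used a lower limit. Its microarray value for SCD, also lower with GO, was a larger fold change than any of these 3. The 95% confidence interval of the mean log2 ratio ran from −0.33 to −0.15 at A_69_P094731, from −0.24 to −0.060 at A_69_P094732 and from −0.28 to −0.066 at A_69_P094733. Averaged over its probes, SCD had −0.15, −0.20, −0.17 and −0.23 on replicates 1 to 4, a mean of −0.19 ± 0.034 (SD, n = 4). An exact test that changes the signs of the 4 arrays gave p = 0.125 (two-sided), the smallest value that 4 arrays allow.

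The scanned signals behind these ratios were moderate. For A_69_P094731 the mean control signal was 398, 322, 257 and 307 scanner units on replicates 1 to 4, and the mean treated signal was 372, 302, 225 and 255. At A_69_P094732 the control signal was 506, 402, 337 and 421, and the treated signal was 503, 414, 348 and 372. For A_69_P094733 the control signal was 522, 432, 364 and 410 against a treated signal of 534, 422, 392 and 361. Before normalisation the channels thus differed clearly at the first of these probes, whereas at the other two the sign of the raw difference varied from array to array. At those 2 probes the lower ratio on all 4 arrays appeared only after the dyes were normalised. With the deposited processed ratios, normalised by the authors' software, the means were −0.31 ± 0.058, −0.21 ± 0.018 and −0.23 ± 0.089 (SD, n = 4) at A_69_P094731, A_69_P094732 and A_69_P094733.

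**Figure D1:**
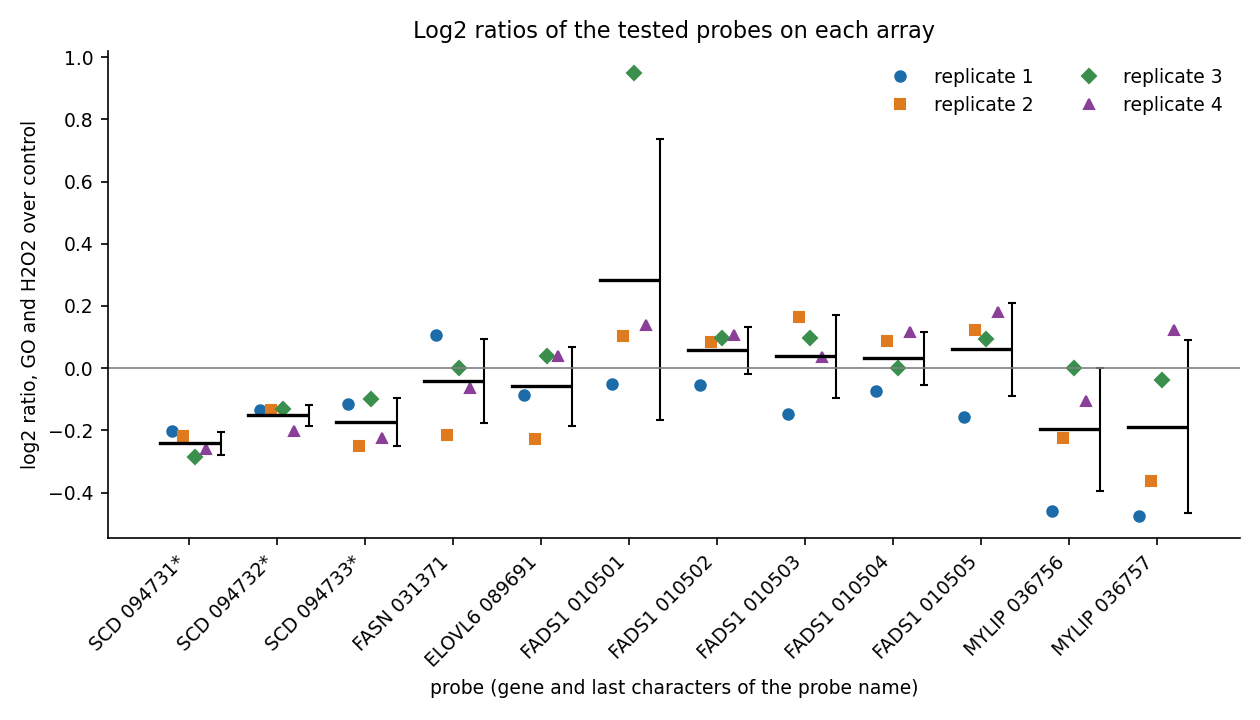
Log2 ratio of GO and H2O2 over control (vertical axis) for each tested probe (horizontal axis), with 1 symbol per replicate array, a horizontal line at the mean and a bar of 1 SD over 4 arrays. An asterisk marks an adjusted p under 0.05 with limma. The 12 values of the 3 SCD probes all lie below 0, whereas those of FASN, ELOVL6, FADS1 and MYLIP fall on both sides of 0.

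The SCD call depended on the arrays and on the test. Across 19 other settings all 3 probes kept a mean below 0, between −0.31 and −0.13. All 3 passed in 9 of the settings, some of them in 4, and none in 6. The deposited processed ratios and the series matrix values are identical but count as separate settings, and all 3 passed in both. No SCD probe passed without replicate 1, without replicate 3 or without replicate 4, where the lowest limma adjusted p-values were 0.0820, 0.0623 and 0.0842. Without replicate 2 only A_69_P094731 passed (limma adjusted p = 0.0257). None of the 3 passed by the methods' t-test (lowest adjusted p = 0.0677), with median centring (lowest adjusted p = 0.761) or with the channels treated as separate samples (lowest adjusted p = 0.0793). Over all 24230 probes the counts of calls fell in the same settings, to 2, 3899, 38 and 0 without replicates 1, 2, 3 and 4 and to 12 with median centring.

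**Figure D2:**
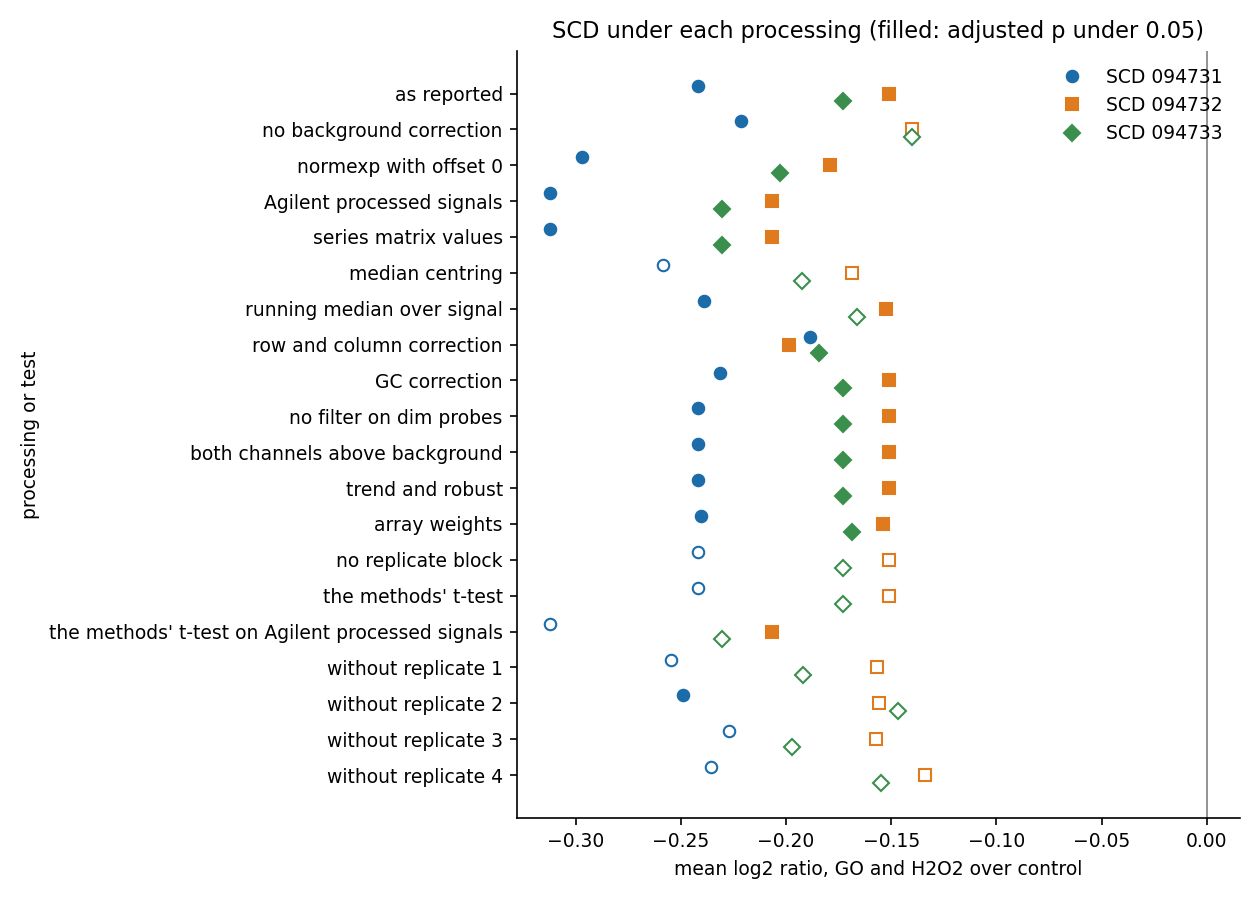
Mean log2 ratio of GO and H2O2 over control (horizontal axis) of the 3 SCD probes under each processing or test (vertical axis). Filled symbols have an adjusted p under 0.05 and open symbols do not. Every symbol lies below 0, between −0.31 and −0.13, and all 3 are open in 6 of the 19 alternatives.

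The genes that supply SCD with saturated fatty acids did not pass. FASN, which makes palmitate from acetyl-CoA and malonyl-CoA, had log2 ratios of 0.11, −0.22, 0.00021 and −0.063 on replicates 1 to 4. Replicate 1 was above 0, replicate 2 below it by more, and the mean of −0.043 ± 0.14 (SD, n = 4, limma adjusted p = 0.625) was smaller than the spread. Its 95% confidence interval ran from −0.18 to 0.096. The FASN sign was not settled, since the mean was above 0 without background correction, with the row and column correction and without replicate 2. The FASN control signal was 166, 183, 164 and 185 scanner units and the treated signal 184, 159, 164 and 166.

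ELOVL6, which elongates palmitate to stearate, the main substrate of SCD, had log2 ratios of −0.085, −0.23, 0.040 and 0.040. The values of replicates 1 and 2 were below 0 and those of replicates 3 and 4 above it. The mean was −0.058 ± 0.13 (SD, n = 4, limma adjusted p = 0.484), with a 95% confidence interval from −0.19 to 0.076. The ELOVL6 mean was −0.0018 without replicate 2, −0.12 with the row and column correction and −0.21 with the deposited processed ratios, and it passed in none of 20 alternatives. The ELOVL6 control signal was 242, 200, 186 and 184 scanner units and the treated signal 220, 165, 177 and 169. On the raw scale the treated signal was lower on each array, whereas after normalisation it was lower on 2 of 4.

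MYLIP was lower on the first pair of replicates and near 0 on the others. At A_69_P036757, its brighter probe, the log2 ratios were −0.47, −0.36, −0.037 and 0.12, a mean of −0.19 ± 0.28 (SD, n = 4, limma adjusted p = 0.220). At A_69_P036756 they were −0.46, −0.23, 0.0016 and −0.11, a mean of −0.20 ± 0.20 (SD, n = 4, limma adjusted p = 0.112). Both probes share 30 bases, and both had their lowest value on replicate 1 and their next lowest on replicate 2. The spread at A_69_P036757 was wider than its mean, and without replicate 1 it was −0.092.

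The MYLIP signals show the same order. At A_69_P036757 the control signal was 384, 254, 209 and 265 scanner units and the treated signal 279, 199, 212 and 271. At A_69_P036756 the control signal was 225, 155, 139 and 169 and the treated signal 157, 128, 128 and 144. Replicate 1 thus had both the highest MYLIP control signal and the widest gap between the channels. With the deposited processed ratios the mean was −0.32 ± 0.41 at A_69_P036757 and −0.42 ± 0.36 at A_69_P036756 (SD, n = 4), neither of them passing. MYLIP passed in none of its 20 alternatives.

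FADS1, the delta-5 desaturase, was measured by 5 probes named in the description only, which start 1 base apart in the transcript ENSECAT00000025250 on chromosome 12. None passed. At A_69_P010504, the brightest, the log2 ratios were −0.073, 0.086, 0.00075 and 0.11, a mean of 0.032 ± 0.085 (SD, n = 4, limma adjusted p = 0.645). The mean of this probe ranged from 0.0046 without replicate 4 to 0.15 with the row and column correction, and was 0.15 with the deposited processed ratios and 0.10 without background correction, passing in none of 19 alternatives. At all 5 probes replicate 1 was below 0, between −0.16 and −0.052, and the other replicates were above it.

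A single spot set the mean of one FADS1 probe apart. The log2 ratio of A_69_P010501 was −0.052, 0.10, 0.95 and 0.14, a mean of 0.28 ± 0.45 (SD, n = 4, limma adjusted p = 0.229). Its control signal was 197, 173, 95.2 and 193 scanner units and its treated signal 196, 183, 189 and 190. The control signal of replicate 3 was thus low, and over the 4 arrays this channel was well above background on 3. On replicate 3 the other 4 probes had control signals between 152 and 164 and log2 ratios between 0.00075 and 0.096. Without replicate 3 the mean of A_69_P010501 was 0.063.

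The remaining genes were near the detection limit, and no fold change is given for them. ACACA, which makes malonyl-CoA, had a control signal of 98.8, 106, 99.4 and 110 scanner units and a treated signal of 85.1, 79.7, 67.6 and 79.1. In each channel 1 of the 4 arrays was well above background. Its log2 ratios were 0.0078, −0.15, −0.28 and −0.074. SREBF1 had a control signal of 106, 117, 103 and 103, well above background on 2 arrays, and a treated signal of 78.9, 79.2, 79.7 and 78.5, on none. Its log2 ratios, −0.11, −0.16, 0.14 and 0.066, had no common sign.

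FADS2, the delta-6 desaturase, was not well above background in either channel on any array at any of its 5 probes. Its control signals lay between 72.9 and 103 scanner units and its treated signals between 56.5 and 76.3. The log2 ratios of the 20 spots ranged from −0.099 to 0.31. When dim probes were tested too, A_69_P010510 passed (limma adjusted p = 0.0361), whereas the 4 probes with the same 56 bases did not. It was the only dim member probe of 8 to pass in that test, at a signal not distinguished from background.

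The sterol exporters were likewise not detected. ABCA1, at chr25:24520747-24520806, had a control signal of 91.0, 104, 91.6 and 79.4 scanner units and a treated signal of 78.5, 78.8, 66.2 and 60.1, neither well above background on any array. Its log2 ratios were 0.035, 0.027, 0.19 and 0.13, all above 0 but taken between 2 signals at background. ABCG1, named in the description only, had a control signal of 74.2, 79.7, 75.9 and 83.2 and a treated signal of 58.8, 63.6, 56.0 and 58.0. Its log2 ratios were −0.032, 0.12, 0.0028 and 0.15. A change in either exporter was not detectable with these probes.

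**Figure D3:**
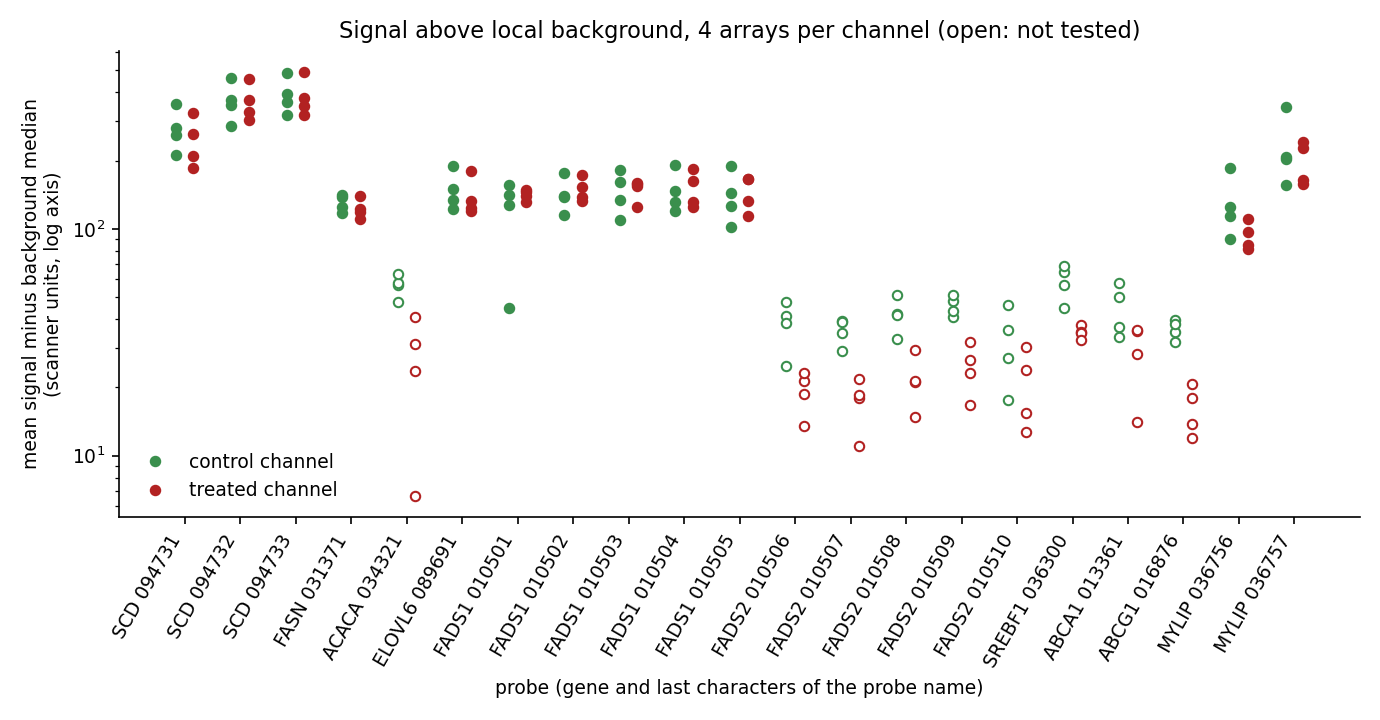
Mean signal minus the local background median (vertical axis, scanner units, log scale) of each probe (horizontal axis), with 4 arrays in the control channel (green) and in the treated channel (red), before normalisation. Filled symbols are tested probes and open symbols are probes too dim to be tested. All probes of ACACA, FADS2, SREBF1, ABCA1 and ABCG1 are open, and the level of one probe cannot be set against that of another.

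The surrounding pathways were described by 6 gene lists with 102 genes other than the members, of which 100 had a probe and 78 a tested one. At the brightest tested probe of each gene, 12 passed, 7 higher and 5 lower. None of the list genes passed (0) without replicate 1, without replicate 3 or without replicate 4, and 8 did without replicate 2. This is 15.4% of 78, against 17.1% of all tested probes. The median log2 ratio of the 78 genes was 0.017, against 0.0030 over all tested probes. Of 13692 gene names taken the same way, 17.1% passed, so that the share in the lists was near that of all genes.

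In fatty acid synthesis, 1 of 20 tested genes passed. This was MID1IP1, whose protein stimulates the polymerisation and activity of acetyl-CoA carboxylase, with log2 ratios of 0.36, 0.28, 0.25 and 0.25 (mean 0.29 ± 0.053, SD, n = 4, limma adjusted p = 0.0163). It was higher on every array, and it passed in 13 of 19 alternatives. ACLY, which makes cytosolic acetyl-CoA, had a mean of −0.017 ± 0.077 (SD, n = 4, limma adjusted p = 0.808) and did not pass at any of its 5 probes.

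In elongation and desaturation, 2 of 11 tested genes passed, in opposite directions. CYB5A, the cytochrome b5 that passes electrons to SCD and the other desaturases, was lower on all 4 arrays. Its log2 ratios were −0.20, −0.13, −0.30 and −0.15 (mean −0.20 ± 0.077, SD, n = 4, limma adjusted p = 0.0340). Each of the 3 CYB5A probes passed. TECR, the reductase of the last step of elongation, was higher on all 4, with 0.22, 0.17, 0.13 and 0.13 (mean 0.16 ± 0.041, SD, n = 4, limma adjusted p = 0.0383). ELOVL5, an elongase of polyunsaturated fatty acids, had a mean of 0.040 ± 0.097 (SD, n = 4, limma adjusted p = 0.587). The ELOVL5 probe was dim, with a control signal of 107 to 126 and a treated signal of 81.2 to 116 scanner units. Both channels were still well above background on 4 arrays. CYB5A passed in 12 and TECR in 7 of 19 alternatives. With a correction for the GC content of the probes TECR had 0.11 (limma adjusted p = 0.0964).

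In SREBP processing and sterol sensing, 0 of 9 tested genes passed with limma at the brightest probe. SCAP, which escorts SREBP from the endoplasmic reticulum to the Golgi, had log2 ratios of −0.14, −0.20, −0.049 and −0.30 (mean −0.17 ± 0.11, SD, n = 4, limma adjusted p = 0.0610). It was below 0 on each array, and 3 of its 5 probes passed. SREBF2, the master regulator of cholesterol synthesis, had a mean of 0.018 ± 0.11 (SD, n = 4, limma adjusted p = 0.824). The SREBF2 probe was near background, with a control signal of 98.7 to 113 scanner units, well above background on 2 arrays. A lack of change in SREBF2 cannot be read from it. INSIG1, which retains SCAP when sterols are plentiful, had 0.0013 ± 0.086 (SD, n = 4, limma adjusted p = 0.986). The signs of the SREBF2, INSIG1, ACLY and ELOVL5 means changed with the processing or with an array left out.

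In the list of LXR and sterol efflux, 5 of 17 tested genes passed, 3 higher and 2 lower. NR1H2 (LXR-beta) was higher, with log2 ratios of 0.20, 0.17, 0.094 and 0.27 (mean 0.18 ± 0.074, SD, n = 4, limma adjusted p = 0.0384). NR1H3 (LXR-alpha) had −0.11, 0.063, −0.032 and −0.32 (mean −0.098 ± 0.16, SD, n = 4, limma adjusted p = 0.315). The NR1H2 probe was above 0 on each array, while the NR1H3 probe, dim in the treated channel on 1 array, was not of one sign. NR1H2 passed in 10 of 19 alternatives, but not when any 1 replicate was left out, nor with the correction for GC content (0.13, limma adjusted p = 0.0828). The 2 receptors were not tested against each other.

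LCAT, which esterifies cholesterol in lipoproteins, was higher by 0.30 ± 0.041 (SD, n = 4, limma adjusted p = 0.0153). SCARB1, a receptor for high-density lipoprotein, had −0.18 ± 0.079 (SD, n = 4, limma adjusted p = 0.0412), and VLDLR, a lipoprotein receptor and a target of MYLIP, had −0.17 ± 0.038 (SD, n = 4, limma adjusted p = 0.0340). Both were below 0 on each array. Out of 19 alternatives LCAT passed in 13, SCARB1 in 10 and VLDLR in 9, and neither SCARB1 nor VLDLR passed when any 1 replicate was left out. The call was lost for VLDLR with the deposited processed ratios (limma adjusted p = 0.0534) and for SCARB1 with the row and column correction (limma adjusted p = 0.108). APOE, an apolipoprotein that takes up exported cholesterol, was not tested. Its control signal was well above background on 0 arrays and its treated signal on 2.

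Of the glycerolipid and lipid droplet genes, 2 of 10 tested passed at the brightest probe, both higher. MGLL did not pass there (mean 0.15 ± 0.066, SD, n = 4, limma adjusted p = 0.0583), although 4 of its 5 probes passed. PNPLA2, the first lipase of stored triglyceride, had a mean of 0.25 ± 0.040 (SD, n = 4, limma adjusted p = 0.0182). AGPAT1, an acyltransferase of phospholipid and triglyceride synthesis, had 0.19 ± 0.083 (SD, n = 4, limma adjusted p = 0.0370). PNPLA2 passed in 12 and AGPAT1 in 11 of 19 alternatives. The AGPAT1 mean was 0.14 with the correction for GC content, where it did not pass (limma adjusted p = 0.0816), and 0.34 with the deposited processed ratios. The median log2 ratio of the 10 genes was 0.13, and 1 of them was below 0, against 47.5% of all gene names. LPIN1, 1 of those above 0, was tested only through the treated channel. Its control signal was well above background on at most 2 arrays, a selection that favours a ratio above 0. The list as a whole was not tested.

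Of the genes of fatty acid uptake and oxidation, 2 of 11 tested passed, both lower. HADHB, a subunit of the mitochondrial trifunctional protein, had log2 ratios of −0.29, −0.33, −0.30 and −0.34 (mean −0.31 ± 0.021, SD, n = 4, limma adjusted p = 0.0136). It was lower on every array. ACADM, the medium-chain acyl-CoA dehydrogenase, had −0.16 ± 0.058 (SD, n = 4, limma adjusted p = 0.0416), and 1 of its 2 probes passed. ACADM passed in 5 of 19 alternatives and HADHB in 14.

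**Figure D4:**
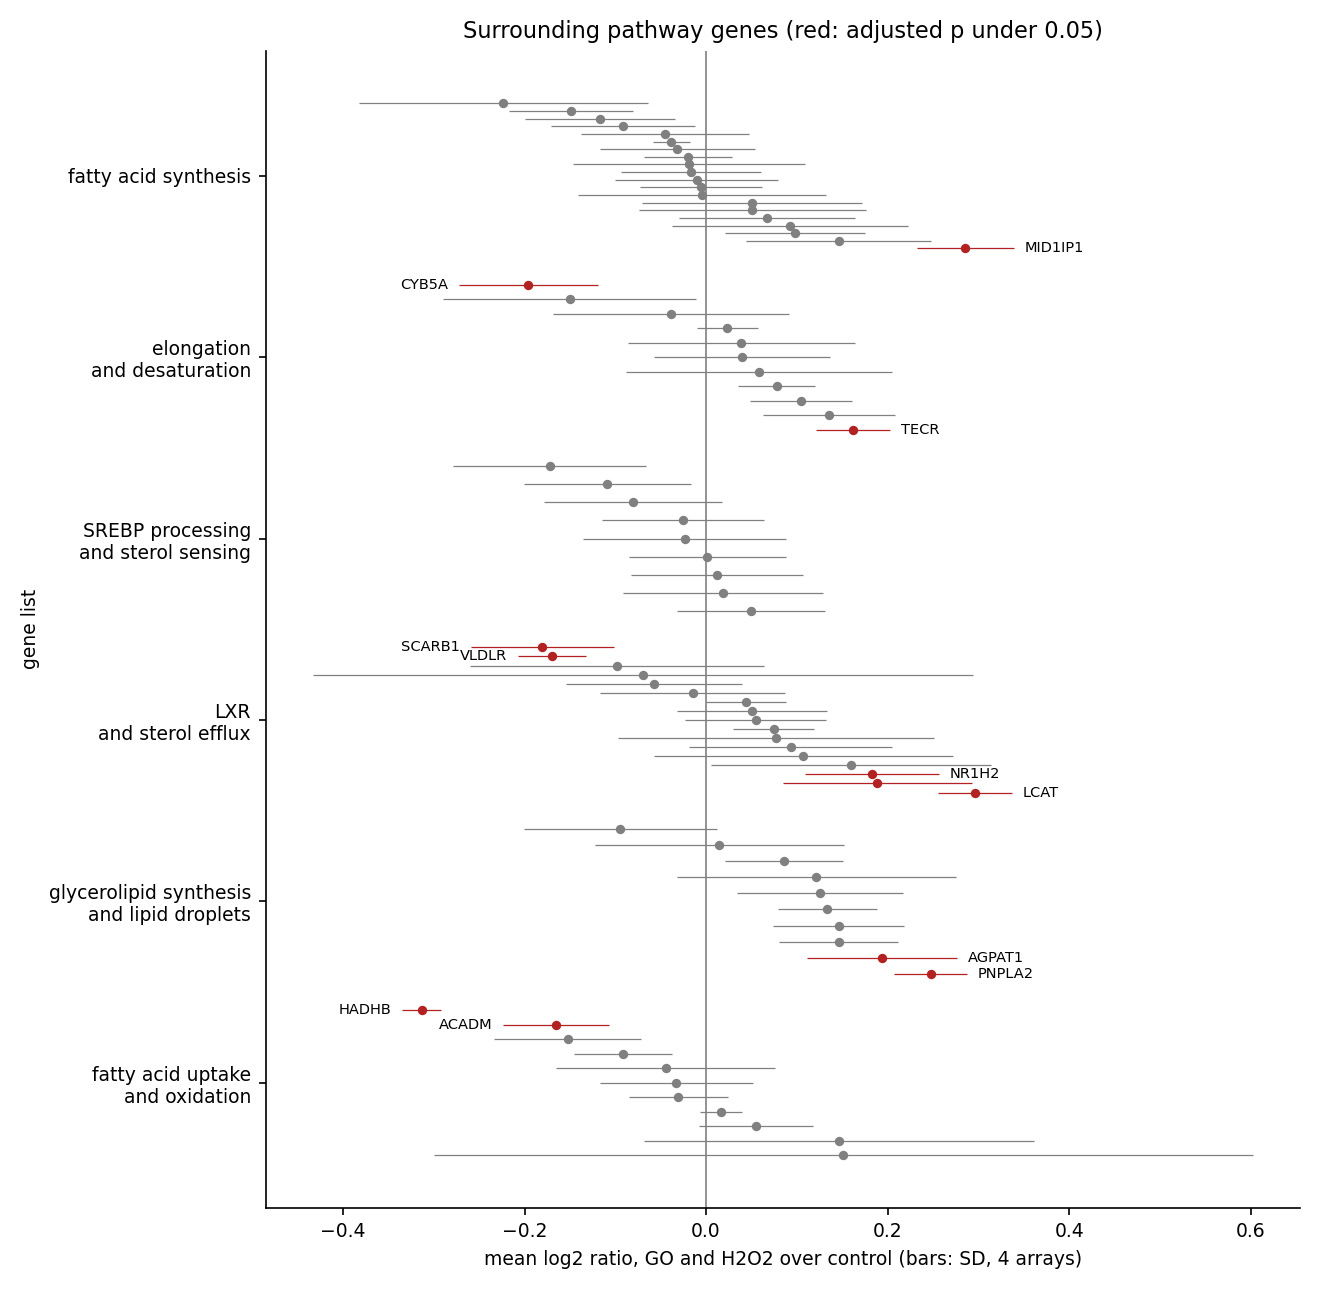
Mean log2 ratio of GO and H2O2 over control (horizontal axis, bars of 1 SD over 4 arrays) for the brightest tested probe of each gene in 6 lists (vertical axis). Genes with an adjusted p under 0.05 are red, and those described in the text carry their symbol. The red points lie on both sides of 0, with 7 above and 5 below.

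The labelled cell type was checked against marker genes. Of 9 skeletal muscle markers 8 were tested, and all but PAX7, which marks resting satellite cells and was not well above background on any array, were detected. With GO and H2O2, 4 of the 8 passed, all higher: MYOG (0.33 ± 0.13, SD, n = 4), MYH3 (0.25 ± 0.14), TNNT3 (0.44 ± 0.10) and CKM (0.33 ± 0.21). Of all tested probes 9.49% passed with a higher signal. With the deposited processed ratios MYH3 had 0.16 and did not pass (limma adjusted p = 0.144), whereas MYOG, TNNT3 and CKM passed. Without replicates 1, 3 and 4 only 2, 38 and 0 of all 24230 tested probes passed. The summed processed signal of the muscle markers was between 120612 and 146877 in control channels and between 127013 and 176124 in treated channels. Within arrays the treated muscle sum was above the control sum on 4 of 4. Of the adipocyte markers with a probe, 1 of 6 was detected on every array, CIDEA, which was higher (0.27 ± 0.064, SD, n = 4). ADIPOQ, PLIN1, FABP4 and CIDEC, which define fat cells, were not well above background on any array. The summed signal of the adipocyte list was between 2368 and 3063 in control and between 2730 and 3579 in treated channels, higher in the treated channel on 4 of 4 arrays.

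Of 6 fibroblast markers 5 were tested, with THY1 higher (0.28 ± 0.14, SD, n = 4) and LUM lower (−0.43 ± 0.10). The summed fibroblast signal was between 165065 and 194265 in control and between 153647 and 221205 in treated channels, higher in the treated channel on 2 of 4 arrays. Of 6 macrophage markers 3 were tested, with PTPRC higher (0.53 ± 0.055, SD, n = 4) and CD14 lower (−0.17 ± 0.061). CD14 did not pass with the deposited processed ratios (limma adjusted p = 0.0515). The PTPRC value is that of its brightest probe. Of 15 PTPRC probes only 7 were tested, of which 6 passed, and 1 of the 7 was below 0. CSF1R, ITGAM and AIF1 were not well above background on any array. The summed macrophage signal was between 12080 and 13541 in control and between 15925 and 17966 in treated channels, higher in the treated channel on 4 of 4 arrays. This sum is mainly that of PTPRC and CD14. Their brightest probes had control signals of 7723 to 11192 and 2842 to 4480 scanner units, against 133 to 156 for CD68. Fewer cells of a type and less RNA per cell cannot be told apart in these cultures. The part of these markers in the SCD result was not tested.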

How the data were processed

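Total RNA of treated and control equine satellite cells was hybridised on 4 two-colour arrays (45220 spots, 43603 gene probes). The deposited intensities were extracted by the authors. Per the file headers, the software was Agilent Feature Extraction 10.10.1.1. The deposited log10 ratios are of processed red over processed green, and the authors' series matrix holds the same values, with a largest difference of 0 and a median of 0 per array.

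Here mean intensities were corrected with normexp (offset 50) and normalised by loess within each array. Control spots had no weight in the loess fit. Outlier spots (7 to 16 gene spots per array) were left out only afterwards, when the spots of a probe were averaged. Probes well above background on all 4 arrays in at least 1 channel were tested (24230, 55.6%) with limma 3.58.1 in R 4.3.3. The test was two-sided, and adjusted p-values (Benjamini-Hochberg) under 0.05 passed. The code was tested on simulated data. Errors are SDs, and the number of arrays limits the precision.

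The members and gene lists were chosen with earlier results of these data known. Named list genes were at most 4 passing genes per list with the smallest adjusted p, and NR1H2, NR1H3, SREBF2, SCAP, INSIG1, ACLY, ELOVL5 and APOE. LPIN1 and MGLL are named only for the limits they set on their list, and their alternatives are not given. Results of 2 list genes are not reported here. A gene's value is that of its brightest tested probe, and symbols are those of the files or of exact probe descriptions. The alternatives were other background corrections, normalisations, filters and tests, the deposited ratios and leaving out each replicate. The deposited ratios and the identical series matrix values are counted as separate alternatives throughout.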

Additional observations from a re-analysis of the deposited data

Results flagged for a closer look

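Dixon's test on the log2 ratios of the 4 arrays found 1 array far from the others at 2 of 12 tested member probes and at 4 of 78 list genes, where chance gives about 1 in 20. No list gene described above is among those 4. The SCD probe A_69_P094732 stood at −0.20 on replicate 4, against −0.14 to −0.13 on the rest. The FADS1 probe A_69_P010502 had −0.055 on replicate 1, while the others lay between 0.084 and 0.11.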

How the results depend on the processing

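With the processing described, 1 member gene (SCD), 3 member probes and 12 list genes passed. The methods' t-test gave 0 member genes, 0 member probes and 0 list genes, and on Agilent processed signals it gave 0, 1 and 1. With median centring the counts were 0, 0 and 0, and with no replicate block (both channels as separate samples) they were 0, 0 and 3. Without background correction 0 member genes and 1 member probe passed, and with the running median over signal 0 member genes did. With the GC correction 8 list genes passed, and with normexp offset 0 the count was 9. When each replicate was left out in turn, the counts ranged from 0 to 0 for member genes, from 0 to 1 for member probes and from 0 to 8 for list genes.

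Signs changed for the means of 5 named genes and of 1 further member probe, none of which had passed. FASN became 0.025 with no background correction and 0.031 with the row and column correction, and ranged from −0.093 to 0.015 with a replicate left out. SREBF2 became −0.018 with median centring and −0.022 with the running median, and ranged from −0.016 to 0.055 with a replicate left out. INSIG1 became −0.0035 with normexp offset 0, −0.017 with median centring and −0.011 with the running median, and ranged from −0.033 to 0.031 with a replicate left out. ACLY ranged from −0.049 to 0.014 with a replicate left out. The FADS1 probe A_69_P010503 became −0.011 with the row and column correction and −0.0045 without replicate 2. ELOVL5 changed sign in 3 of 19 alternatives. Among them it became −0.050 with Agilent processed signals, and the same with the identical ratios of the series matrix. The cause of these changes was not tested. Signals near background limit ACACA, FADS2, SREBF1, ABCA1 and ABCG1, and in the control channel also SREBF2. The ELOVL5 signal was low as well, though well above background in both channels.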
